A study of Arabidopsis thaliana with 4 samples.

Results

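GH3.3, GH3.5, IAA29 and HAT2 are early response genes of auxin in Arabidopsis thaliana, and IAA29 and HAT2 are also induced in the shade response. They were measured on 4 Affymetrix arrays. Each was read through the probe set that the platform annotation gives to that gene alone, which yields 4 genes out of 13286 with a probe set of their own. The probe sets are 245076_at for GH3.3 (AT2G23170), 253908_at for GH3.5 (AT4G27260, annotated under its other name WES1), 253423_at for IAA29 (AT4G32280) and 248801_at for HAT2 (AT5G47370). The arrays held total RNA of whole Col-0 seedlings harvested at an age of 10 days and grown at 23 °C in long days on Murashige-Skoog salts. One group of 2 arrays came from 35S:miR396 plants, in which the microRNA miR396 is expressed from the 35S promoter of cauliflower mosaic virus, active in most tissues, and the other group of 2 arrays from wild-type plants. The labels number the arrays 1 and 2 in 35S:miR396 and 1b and 2 in wild type, and 1b is taken as number 1 below. They do not say what the number stands for, how many transgenic lines were used, or whether replicates came from separate plants. A p-value therefore sets the genotype difference only against a spread estimated from these arrays, and that spread may be technical.

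Auxin is perceived by a receptor complex that marks the Aux/IAA repressor proteins for degradation. This frees the ARF transcription factors, which then switch on early genes within minutes. Among these early genes are the Aux/IAA genes themselves, which close a negative feedback loop, and the GH3 genes, whose enzymes join auxin to amino acids and so lower the active pool. Shade, sensed by phytochromes through the PIF transcription factors, raises auxin synthesis and induces IAA29 and the HD-ZIP class II genes to which HAT2 belongs.

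The median signal of the 22746 plant probe sets was 60.5 on 35S:miR396 1 and 81.3 on 35S:miR396 2, against 72.8 on wild type 1b and 71.3 on wild type 2. Log2 values were therefore centred on each array's median, and signals are printed as deposited. All 4 genes lay above a filter on mean signal that left out the lowest 30%, and 15922 probe sets were tested. Of the leaf markers, LHCB4.1 of the light-harvesting antenna had a signal of 11775.3 and 13507.4 in 35S:miR396 and 13121.1 and 13239.9 in wild type. The root gene PYK10 had a signal of 1197.0 and 1496.6 in 35S:miR396 and 1320.7 and 1195.3 in wild type. EXPA7, the other root marker read, was low, with a signal of 3.3 and 20.1 in 35S:miR396 and 15.5 and 4.6 in wild type, and no seed or flower marker had its own probe set. The 7 GRF target genes of miR396 and the 2 MIR396 genes had 0 probe sets annotated to them alone, so the overexpression was not checked here.

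All 4 genes had lower centred signals on the arrays of number 2 than on those of number 1 in both genotypes. Both number-2 arrays lay below both number-1 arrays for each gene, so none of them could separate 35S:miR396 from wild type. The overlap of the genotypes was thus fixed by the order of the numbers and does not show that the genotypes are alike. IAA29 lay farthest apart between the numbers, followed by GH3.3, HAT2 and GH3.5. The 3 genes IAA29, GH3.3 and HAT2 were at least 2-fold lower on number 2 in both genotypes, which held for 1.44% of all tested probe sets. On the deposited signals HAT2 fell short of 2-fold in 35S:miR396, leaving 2 of 4 genes, against 0.685% of all tested probe sets. Both number-2 arrays lay below both number-1 arrays for 4 of 4 genes after centring, against 34.1% of all tested probe sets, and for 3 of 4 on the deposited signals, where GH3.5 overlapped, against 12.8%. These differences rest on 1 array of each number in each genotype and were not tested. The 4 genes were chosen with earlier results of these data known, so these counts do not measure an enrichment. What else differed between the numbers is not given in the labels and was not tested, and in RNA of whole seedlings fewer cells of a type and less RNA per cell cannot be told apart.

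**Figure D1:**
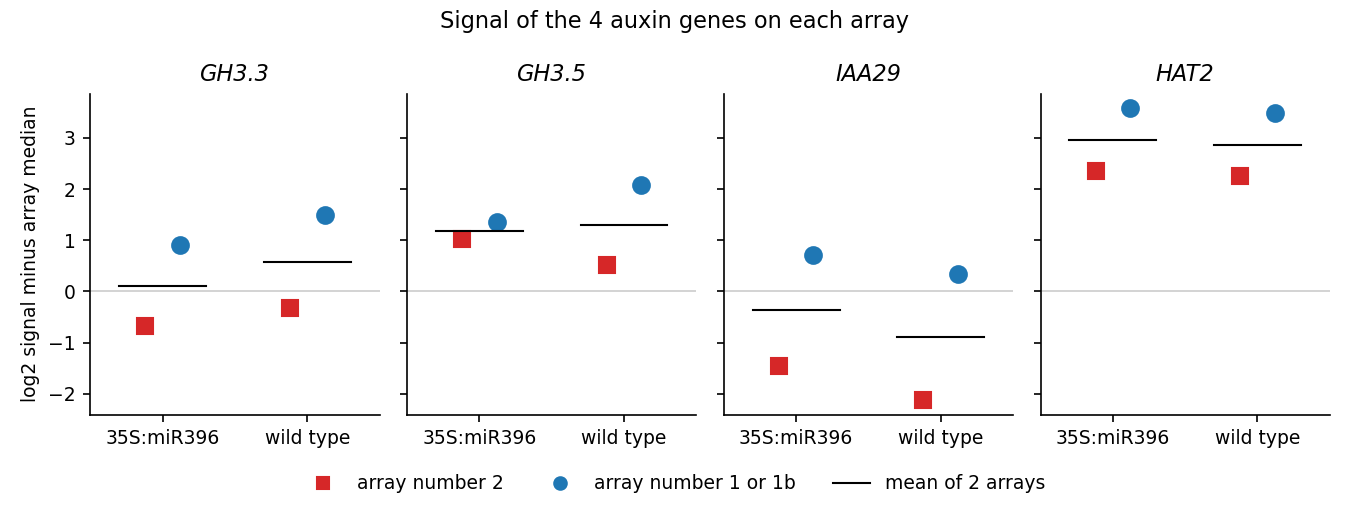
Log2 signal minus the array median (vertical axis) of GH3.3, GH3.5, IAA29 and HAT2 in 35S:miR396 and wild-type seedlings. Each symbol is 1 array, squares for number 2 and circles for number 1 or 1b, and the lines are means of 2 arrays. In each panel both squares lie below both circles, for GH3.5 only after centring, while the means of the genotypes lie close to each other compared with the distance between the numbers.

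GH3.3 and GH3.5 encode acyl acid amido synthetases that conjugate indole-3-acetic acid, the main auxin, to amino acids. GH3.3 had a signal of 50.5 on 35S:miR396 2 and 113.9 on 35S:miR396 1. In wild type its signal was 56.6 on array 2 and 204.6 on array 1b. The arrays of number 2 were thus close to each other and both far below number 1. After centring, GH3.3 was 3.03-fold lower on number 2 in 35S:miR396 and 3.54-fold lower in wild type, log2 differences of -1.60 and -1.82. Of the 15922 tested probe sets, 67 had a lower mean difference over the genotypes than the -1.71 of GH3.3.

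GH3.5, whose enzyme also acts on salicylic acid, had a difference between the numbers mainly in wild type. Its signal was 164.3 on 35S:miR396 2 and 155.6 on 35S:miR396 1, whereas wild type had 101.5 on array 2 and 309.1 on array 1b. Wild type 1b was the high array and wild type 2 the low one, with both 35S:miR396 arrays in between. After centring, GH3.5 was 1.27-fold lower on number 2 in 35S:miR396 and 2.98-fold lower in wild type, log2 differences of -0.35 and -1.58. Without centring the difference in 35S:miR396 was 0.08, so that its direction there depended on the scaling, and the numbers overlapped.

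IAA29 encodes an Aux/IAA repressor that is induced by auxin and by PIF factors. In 35S:miR396 its signal was 29.6 on array 2 and 99.3 on array 1. Wild type had 16.3 on array 2 and 92.1 on array 1b. Both arrays of number 1 were high and near each other, and wild type 2 was close to 15.8, the lowest mean signal kept for testing, where a fold is imprecise. The centred signal was 4.51-fold lower on number 2 in 35S:miR396 and 5.53-fold lower in wild type, log2 differences of -2.17 and -2.47. Only 19 tested probe sets had a lower mean difference than the -2.32 of IAA29.

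HAT2 encodes a homeodomain-leucine zipper transcription factor of class II, a class of repressors that act in shade avoidance. Its signal was 414.1 on 35S:miR396 2 and 724.5 on 35S:miR396 1. In wild type it was 341.2 on array 2 and 812.2 on array 1b. The 2 genotypes gave nearly the same difference, 2.35-fold lower on number 2 in 35S:miR396 and 2.33-fold lower in wild type, or -1.23 and -1.22 in log2. A lower mean difference than the -1.23 of HAT2 was found for 232 tested probe sets.

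Scaling moved these differences together. The median of the mean difference over all tested probe sets was -0.04 after centring and 0.16 on the deposited signals, because 35S:miR396 1 was the dimmest array and 35S:miR396 2 the brightest. On the deposited signals HAT2 was lower on number 2 by a log2 difference of -0.81 in 35S:miR396, less than 2-fold, and -1.25 in wild type. GH3.3 and IAA29 stayed more than 2-fold lower in both genotypes under that scaling, with the smaller differences, both in 35S:miR396, at -1.17 and -1.75. Across all tested probe sets, the differences in 35S:miR396 and in wild type had a correlation of 0.63, given as a description since the points share the same 4 arrays.

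**Figure D2:**
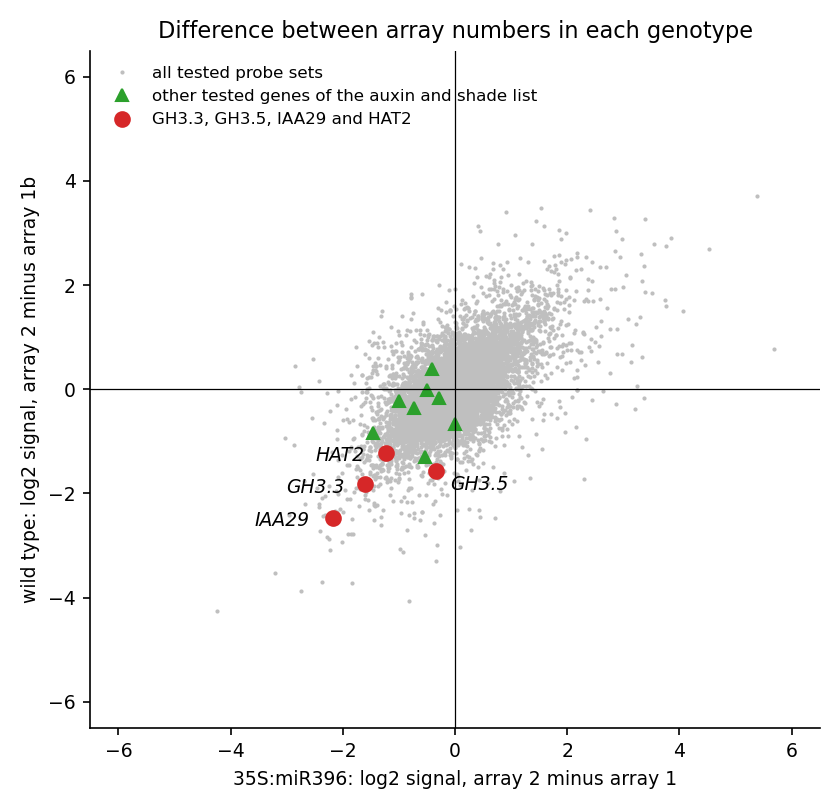
Log2 signal of array 2 minus array 1 in 35S:miR396 (horizontal axis) against array 2 minus array 1b in wild type (vertical axis), after centring, for 15922 tested probe sets (grey dots). Red circles are the 4 genes and green triangles the 8 other tested genes of the auxin and shade list. GH3.3, IAA29 and HAT2 lie near the diagonal at the lower left, and GH3.5 lies below the others' line because its difference was -0.35 in 35S:miR396 and -1.58 in wild type.

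Between the genotypes the question was whether overexpression of miR396 goes with other levels of these early auxin transcripts. GH3.3 had a mean signal of 82.2 ± 44.8 in 35S:miR396 and 130.6 ± 104.7 in wild type (SD, n = 2 each). For GH3.5 the mean was 159.9 ± 6.15 in 35S:miR396 and 205.3 ± 146.8 in wild type. IAA29 averaged 64.5 ± 49.3 in 35S:miR396 and 54.2 ± 53.6 in wild type. The mean of HAT2 was 569.3 ± 219.5 in 35S:miR396 and 576.7 ± 333.0 in wild type. The genotypes overlapped for all 4 genes. For GH3.3, IAA29 and HAT2 the order of the numbers already fixes this.

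In the limma fit across all tested probe sets the log2 ratio of 35S:miR396 over wild type was -0.47 for GH3.3 (95% interval from -2.55 to 1.62) and -0.11 for GH3.5 (-1.53 to 1.31). It was 0.52 for IAA29 (-2.29 to 3.34) and 0.10 for HAT2 (-1.41 to 1.60). In this fit, which has no term for the replicate number, the intervals of all 4 genes include 0 and are wide enough to hold a 2-fold difference either way. The Benjamini-Hochberg adjusted p from limma was 1.00 for each gene, and 0 of 4 passed 0.05, as did 0 of 15922 probe sets, or 0%, while 103 probe sets lay under an unadjusted p of 0.05. Those 103 are fewer than a share of 0.05 of the tested probe sets. This fit leaves the difference between the numbers in the residual spread. With the replicate number as a block, 902 probe sets lay under an unadjusted limma p of 0.05. The 0 calls therefore do not show that the genotypes are alike. After centring, the 35S:miR396 arrays lay wholly above the wild-type arrays for 0 of 4 genes and wholly below them for 0 of 4, against 9.18% and 10.7% of all tested probe sets. The 4 genes could not meet either, since both number-2 arrays lay below both number-1 arrays. These counts were thus fixed by the order of the numbers and say nothing about the genotypes. All 4 directions turned when single arrays were left out. Each such fit leaves the numbers unequal between the genotypes, so the difference between the numbers enters the ratio. These turns therefore do not tell how stable a genotype ratio is. GH3.3 went to 0.33 without 35S:miR396 2 and 0.45 without wild type 1b, and GH3.5 to 0.07 and 0.68 without the same arrays. IAA29 went to -0.56 without 35S:miR396 1 and -0.71 without wild type 2, and HAT2 to -0.52 and -0.515 without the same arrays.

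Within each number the genotype ratios lay closer to 0 than the differences between the numbers, except for GH3.5 in 35S:miR396. HAT2 had a log2 ratio of 35S:miR396 over wild type of 0.09 on number 2 and 0.10 on number 1. IAA29 was higher in 35S:miR396 in both, at 0.67 on number 2 and 0.38 on number 1, and GH3.3 lower in both, at -0.35 on number 2 and -0.58 on number 1. GH3.5 had ratios of opposite sign, 0.51 on number 2 and -0.72 on number 1. Over all tested probe sets these ratios had a SD of 0.35 on number 2 and 0.36 on number 1. The ratios of all 4 genes lay within 2 such SDs of 0 in both numbers, GH3.5 on number 1 only barely. Its ratio there, -0.723, equals the limit below which the lowest 2.5% of all tested probe sets lay. With 1 array of each genotype in a number, these within-number ratios have no test.

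**Figure D3:**
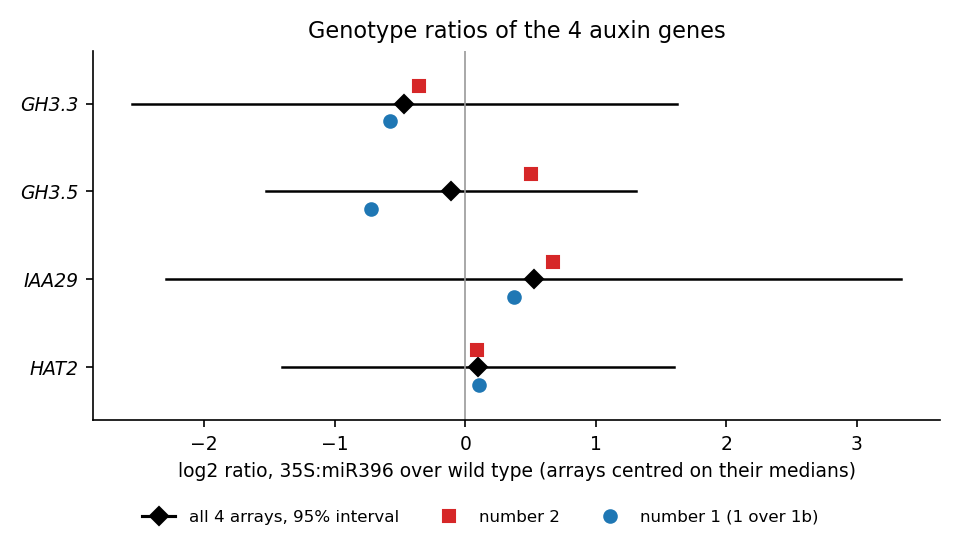
Log2 ratio of 35S:miR396 over wild type (horizontal axis) for GH3.3, GH3.5, IAA29 and HAT2 after centring. Diamonds and lines are the estimates from all 4 arrays with 95% intervals, red squares the ratio within number 2 and blue circles the ratio of 35S:miR396 1 over wild type 1b. All 4 intervals, from the fit with no term for the number, include 0, and GH3.5 has its square above 0 at 0.51 and its circle below 0 at -0.72.

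A wider list of auxin and shade genes, which includes these 4, held 176 loci, of which 22 had a probe set of their own and 12 were tested. None of the 16 SAUR loci or the 29 loci of auxin receptors and response factors was among the 22. In the genotype comparison 0 of 12 genes passed 0.05 in either direction, with a median log2 ratio of 0.06 against 0.00 over all tested probe sets, 7 above 0 and 5 below. Between the numbers, 12 of 12 had a mean difference below 0, against 54.5% of all tested probe sets, with a median of -0.76 against -0.04 over all tested probe sets. For 10 of 12 both number-2 arrays lay below both number-1 arrays, against 34.1% of all tested probe sets. On the deposited signals 11 of 12 had a mean difference below 0, all but PID2, against 32.2% of all tested probe sets, and 7 of 12 separated the numbers in this way, against 12.8%. Leaving out GH3.3, GH3.5, IAA29 and HAT2, 6 of 8 separated the numbers after centring, with a median of -0.44, and 4 of 8 on the deposited signals, to be read against the same 34.1% and 12.8%. At least 2-fold lower in both genotypes were 0 of these 8 after centring, against 1.44% of all tested probe sets. None of these counts was tested. The list was chosen with earlier results of these data known, so the counts do not measure an enrichment.

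Of the GH3 genes besides GH3.3 and GH3.5, GH3.17, whose enzyme conjugates auxin to glutamate, had a signal of 68.9 on 35S:miR396 2 and 74.0 on 35S:miR396 1, and of 30.9 on wild type 2 and 77.4 on wild type 1b. Wild type 2 was the low array and the other 3 were close. Like GH3.5, it had a smaller difference between the numbers in 35S:miR396 (-0.53) than in wild type (-1.29). GH3.9 had differences of 0.00 in 35S:miR396 and -0.67 in wild type.

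Among the Aux/IAA genes, IAA30, one of the members that lack the degron recognised by the auxin receptor, had a signal of 19.7 on 35S:miR396 2 and 40.4 on 35S:miR396 1, and of 24.0 on wild type 2 and 43.8 on wild type 1b. It was lower on number 2 in both genotypes, by log2 differences of -1.46 in 35S:miR396 and -0.84 in wild type. IAA34 had -0.99 in 35S:miR396 and -0.22 in wild type. IAA18, a repressor with a signal between 430.8 and 507.4 on the 4 arrays, had differences of only -0.28 in 35S:miR396 and -0.17 in wild type. Differences between the numbers thus ranged from -2.47 for IAA29 in wild type to -0.17 for IAA18 in wild type over the 4 tested Aux/IAA genes. HAT2 was the only 1 of 8 HD-ZIP class II loci read by its own probe set.

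The remaining tested genes act in auxin synthesis, transport and light signalling. YUC2, an enzyme of auxin synthesis, had a signal between 50.4 and 55.1 on all 4 arrays, with centred differences of -0.50 in 35S:miR396 and -0.01 in wild type. The protein kinase gene PID2 is related to the PINOID kinase of auxin transport. Among the tested genes of the list it had the largest log2 ratio of 35S:miR396 over wild type, 0.73 with an interval from -0.33 to 1.79. For 1 of 12 tested genes of the list, PID2, both 35S:miR396 arrays lay above both wild-type arrays after centring. This held for 9.18% of all tested probe sets. The 10 of 12 genes with both number-2 arrays below both number-1 arrays cannot meet it. The count is therefore not comparable with that share. The signal of PID2 was 20.0 and 20.1 in 35S:miR396 and 11.0 and 14.1 in wild type. These values lie near 15.8, the lowest mean signal kept for testing. FHL, which helps carry phytochrome A into the nucleus, had differences of -0.74 in 35S:miR396 and -0.37 in wild type.

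**Figure D4:**
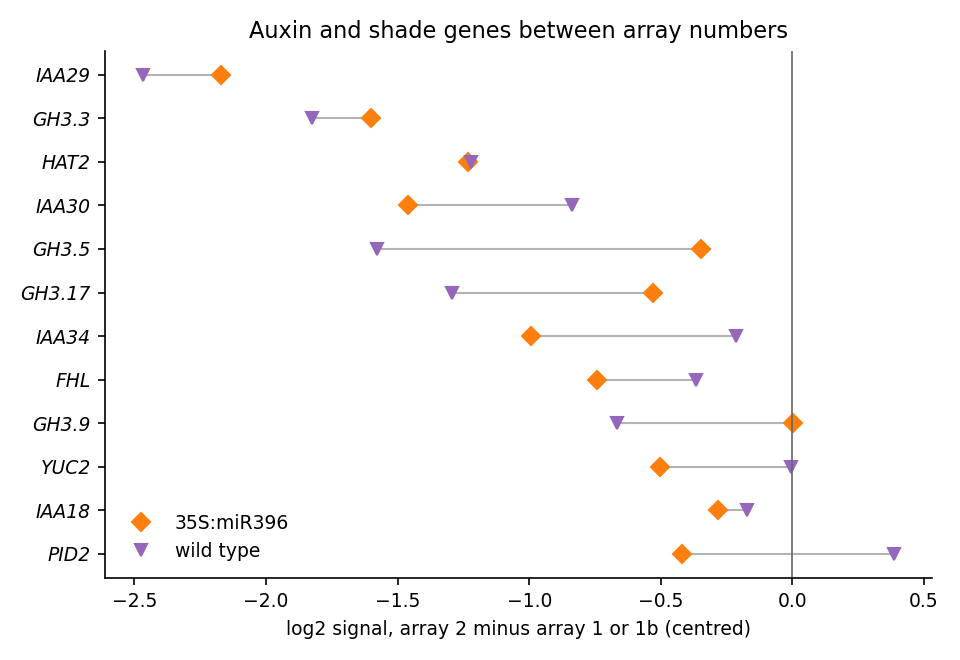
Centred log2 signal of array 2 minus array 1 or 1b (horizontal axis) for the 12 tested genes of the auxin and shade list, with orange diamonds for 35S:miR396 and purple triangles for wild type, ordered by the mean of both. IAA29, GH3.3 and HAT2 are at the top with both symbols below -1, and GH3.5 has the widest gap between its symbols.

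The genes with the most similar pattern over the 4 arrays were sought among 8736 tested single-gene probe sets by the root mean square distance of centred log2 signals, each taken as a deviation from its own mean. This is a description over 4 arrays. For HAT2 the closest were AT3G60320, AT3G60980 and AT4G17470, at distances of 0.02, 0.02 and 0.03. AT3G60320 had a signal of 933.8 on 35S:miR396 2 and 1606.7 on 35S:miR396 1, and of 783.2 on wild type 2 and 1858.5 on wild type 1b. For GH3.3 they were AT3G45730, AT1G30820 and AT1G54740, at 0.13, 0.17 and 0.205. AT5G18840, XTH33 and AT1G33790 were closest to IAA29, at 0.145, 0.16 and 0.165. XTH33, which belongs to the family of cell wall xyloglucan endotransglucosylases, had a signal of 44.8 on 35S:miR396 2 and 172.8 on 35S:miR396 1, and of 32.3 on wild type 2 and 139.8 on wild type 1b. GH3.5 was closest to AT5G26130, AT3G18560 and the chloroplast gene ndhH, at 0.075, 0.08 and 0.085. Among the 4 genes themselves the distances ran from 0.35 between GH3.5 and HAT2 to 0.785 between GH3.5 and IAA29. They are larger than those above, which were picked as the smallest of the search. By rank among the probe sets searched, they ran from 79 (GH3.3 seen from IAA29, HAT2 seen from GH3.3) to 7441 (IAA29 seen from GH3.5).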

How the data were processed

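The authors deposited 1 table of linear intensity values per probe set, computed with MAS5 per the submitters' processing notes. The MAS5 version, scaling target and detection calls are not given in the sources used here. No probe set is therefore called present or absent, and the number of arrays limits the precision. From 22810 probe sets, 64 controls were left out. The annotation gives 1 gene to 13513 probe sets, several to 503 and none to 8730, and 13436 were matched to RefSeq names of the TAIR10.1 assembly. The 6 values at or under 0 were set to 0.1, log2 was taken, each array was centred on its median, and the lowest 30% by mean were left out. Centring replaces the uncentred values used in an earlier analysis, since the array medians differ. The comparison of genotypes used limma 3.58.1 under R 4.3.3 (eBayes with a trend, two-sided, Benjamini-Hochberg over all tested probe sets, threshold 0.05). It was tried on simulated data with independent noise and no difference between the numbers. That trial therefore does not cover the difference between the numbers in these arrays. Tables and figures were made with Python 3.11.15, pandas 2.3.3, numpy 2.4.6 and matplotlib 3.10.9.

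The members and lists were chosen with earlier results of these data known. All measured GH3, Aux/IAA and HD-ZIP class II genes are named, with up to 4 others by size, of which 3 were tested, and the 3 nearest patterns of each gene. Alternatives were other scalings, filters, a pseudocount of 2.4, eBayes settings, the replicate number as a block and each array left out.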

Additional observations from a re-analysis of the deposited data

Results flagged for a closer look

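GH3.5 had ratios of 35S:miR396 over wild type of opposite sign in the 2 array numbers, 0.51 on number 2 and -0.72 on number 1 in log2, a difference of 1.23 that was not tested. Over all tested probe sets 527, or 3.31%, had a difference of at least this size in either direction.

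Ratios of opposite sign were also found for 6 other tested genes of the list, 7 of 12 or 58.3% in all, against 50.2% of all tested probe sets. The ratio on number 2 minus that on number 1 was 0.67 for GH3.9, -0.11 for IAA18, -0.625 for IAA30, -0.78 for IAA34, -0.50 for YUC2 and -0.38 for FHL. Between the numbers, GH3.9 had a difference of only 0.001 in 35S:miR396 and of -0.665 in wild type, apart by the same 0.67. For PID2 the differences ran in opposite directions, -0.42 in 35S:miR396 and 0.39 in wild type, apart by -0.81 (35S:miR396 minus wild type). None of these differences was tested.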

How the results depend on the processing

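No probe set passed under any other scaling, filter, pseudocount, eBayes setting or left-out array. With the replicate block 18 of 15922 passed, and with the block on deposited signals 5, on quantile-normalized values 0 and without a trend 0, the last 3 chosen after seeing the data. The 4 genes were called in none of these 4 fits. The block left the log2 ratios as they were and narrowed their 95% intervals, so that the interval of GH3.3, from -0.86 to -0.07, excluded 0, although its limma adjusted p was 0.732. The interval of IAA29 ran from -0.04 to 1.09 (adjusted p = 0.913). Those of GH3.5, from -0.56 to 0.34, and HAT2, from -0.14 to 0.33, no longer held a 2-fold difference. These block intervals take most of their spread from the other tested probe sets. Both within-number ratios of GH3.5, -0.723 on number 1 and 0.505 on number 2, lie outside its interval. That interval therefore does not exclude a 2-fold difference of GH3.5. The deviations of arrays with the same number from their genotype means had a correlation of 0.63. With 2 arrays per genotype this repeats the correlation of the differences between the numbers given above, a description only. The labels do not say that the number pairs arrays.

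With arrays left out in turn, which leaves the numbers unequal between the genotypes, the log2 ratio ranged from -1.38 to 0.45 for GH3.3, from -0.90 to 0.68 for GH3.5, from -0.71 to 1.76 for IAA29 and from -0.52 to 0.71 for HAT2. The values that turned were 0.33 and 0.45 for GH3.3, 0.065 and 0.68 for GH3.5, -0.56 and -0.71 for IAA29, and -0.52 and -0.515 for HAT2. The median of the list ranged from -0.284 to 0.529 (-0.284 without 35S:miR396 1, 0.529 without 35S:miR396 2, 0.489 without wild type 1b, -0.107 without wild type 2). GH3.3 and IAA29 lay in the lowest 60% and have no value there.

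The mean difference between the numbers was -1.51 for GH3.3 on deposited signals. For HAT2 it was -1.03 on deposited signals, -1.19 after quantile normalization and -1.22 with the pseudocount. Each of these shifts exceeds the SD between the genotypes, which was 0.16 for GH3.3 and 0.009 for HAT2. Signals near background limit the folds of IAA29 and of the dimmer list genes.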

Other observations

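Of the list, 10 genes lay under the filter, with signals from 0.7 to 20.7. GH3.1, a further auxin-conjugating enzyme gene, had a signal of 12.1 on 35S:miR396 2 and 8.0 on 35S:miR396 1, and of 2.1 on wild type 2 and 20.1 on wild type 1b. IAA33 had a signal of 10.9 on 35S:miR396 2 and 20.7 on 35S:miR396 1, and of 10.9 on wild type 2 and 14.2 on wild type 1b. YUC11, a gene of auxin synthesis chosen after its values were seen, had 1.2 on both arrays of number 2, against 4.0 on 35S:miR396 1 and 6.5 on wild type 1b. LBD29, a gene of lateral root formation also chosen in that way, was higher on number 2, with 5.8 on 35S:miR396 2 and 1.4 on 35S:miR396 1, and 2.4 on wild type 2 and 0.7 on wild type 1b. The other 6 were IAA20, IAA31, LBD16, YUC4, YUC6 and WAG2.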
